A study of Mus musculus with 24 samples.

Results

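The semaphorins, ephrins, slits and netrins and their receptors, the plexins, neuropilins, Eph receptors, Robos and Unc5 receptors, were examined for trimethylation of lysine 4 on histone H3 (H3K4me3) at their promoters. The genes were taken by name from the protein-coding genes of GENCODE vM21 basic: names that start with Sema, Plxn, Efna, Efnb, Robo or Unc5, names made of Epha, Ephb, Slit or Ntn and a number, and Nrp1 and Nrp2. This gave 70 genes of 21755 protein-coding genes on the 20 chromosomes used. Of the 70, 35 encode ligands (20 semaphorins, 8 ephrins, 3 slits and 4 netrins) and 33 encode receptors (9 plexins, 2 neuropilins, 14 Eph receptors, 4 Robos and 4 Unc5 receptors). The other 2 fit the rule by name only: Unc50, which encodes a Golgi membrane protein, and Unc5cl, which encodes a death-domain protein related to the Unc5 receptors.

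The series holds 24 ChIP-seq samples of C127, a mouse mammary epithelial cell line, in 12 groups: ChIP of H3K4me3, of CFP1 (endogenous, GFP-tagged or mutated), of KDM2B and of RNA polymerase II, with GFP and input controls. Only the H3K4me3 ChIP on formaldehyde-crosslinked chromatin is described here. It has 3 replicates and 1 input, from which the authors made a single list of 13451 peaks. Samples other than these 3 replicates, 21 in all, were not analysed here. All values below therefore come from 1 line in 1 state, with no treatment and no control group, and no spread between replicates can be given.

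The list holds positions only, so a peak is present or absent and has a width but no height. A gene was called marked when a peak came within 250 bp of one of its transcription start sites (TSSs). The label of the line was checked against marker genes. Of 15 epithelial markers 2 were marked, Gata3 and Esr1, while the defining genes Cdh1, Epcam, Krt8 and Krt18 had no peak at a TSS. Of 15 mesenchymal markers 12 were marked, among them Vim, Fn1, Snai1 and Twist2, while Col1a1, Col3a1 and Thy1 were not. None of 13 neuronal markers was marked, and 1 of 11 endothelial markers was, Flt1. Of all protein-coding genes 49.4% were marked, and 70.2% of those with a CpG island (described below) at a TSS. The mesenchymal share, 80.0% (interval 54.8 to 93.0%), covers the second of these values. Whether this mix of markers bears on the guidance genes was not tested.

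Guidance ligands and receptors were named for the steering of growing axons, and the same proteins act in vessels and in epithelia, where they set cell contact, branching and repulsion. Secreted class 3 semaphorins act through neuropilins bound to A plexins, membrane semaphorins act on plexins directly, ephrins signal to Eph receptor kinases on touching cells, slits bind Robos, and netrins bind Dcc, neogenin and Unc5 receptors. H3K4me3 lies around the start sites of active genes and at CpG islands, stretches of DNA rich in CG dinucleotides (CpGs), where SET1 and MLL enzymes deposit it.

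Some of these promoters are shown first, because among guidance genes with a CpG island the CpG counts of marked and unmarked genes were alike. Each run holds 150 bases of the GRCm38.p6 (mm10) RefSeq genome sequence, read 5′ to 3′ on the strand of the gene, with the TSS at base 121, and CpGs are in capitals. Over the 5′-most TSSs of all 21755 protein-coding genes the same window held a median of 7 CpGs (quartiles 2 and 14). The first run is Nrp2, the most widely marked gene (chr1:62703165-62703314, plus strand, 23 CpGs). Unc5b, marked, stands beside its unmarked relative Unc5c (chr10:60831552-60831701, minus strand, 20 CpGs, and chr3:141465096-141465245, plus strand, 24 CpGs). Epha2, marked, stands beside unmarked Epha8 (chr4:141301120-141301269, plus strand, 7 CpGs, and chr4:136956787-136956936, minus strand, 31 CpGs). The last pair is from a single gene, Sema6b, whose promoter 1 was unmarked and whose promoter 2, inside its first intron, was marked (chr17:56140314-56140463 and chr17:56133814-56133963, both on the minus strand, with 21 and 3 CpGs).
Nrp2: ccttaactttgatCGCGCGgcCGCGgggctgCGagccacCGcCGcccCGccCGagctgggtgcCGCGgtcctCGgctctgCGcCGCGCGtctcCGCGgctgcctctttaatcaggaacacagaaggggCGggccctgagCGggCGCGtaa
Unc5b: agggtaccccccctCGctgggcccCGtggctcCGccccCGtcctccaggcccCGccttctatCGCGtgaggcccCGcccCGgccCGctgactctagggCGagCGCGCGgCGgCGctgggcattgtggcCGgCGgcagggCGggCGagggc
Unc5c: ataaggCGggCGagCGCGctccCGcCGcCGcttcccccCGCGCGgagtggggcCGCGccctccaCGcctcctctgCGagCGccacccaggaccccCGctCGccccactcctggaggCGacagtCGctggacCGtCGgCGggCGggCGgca
Epha2: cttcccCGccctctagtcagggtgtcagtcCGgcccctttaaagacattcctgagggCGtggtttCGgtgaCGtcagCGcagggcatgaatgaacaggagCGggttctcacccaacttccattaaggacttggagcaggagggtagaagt
Epha8: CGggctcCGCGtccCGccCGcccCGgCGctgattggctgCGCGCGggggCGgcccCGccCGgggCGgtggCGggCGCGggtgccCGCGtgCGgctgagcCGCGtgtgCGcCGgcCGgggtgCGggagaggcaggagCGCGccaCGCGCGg
Sema6b promoter 1: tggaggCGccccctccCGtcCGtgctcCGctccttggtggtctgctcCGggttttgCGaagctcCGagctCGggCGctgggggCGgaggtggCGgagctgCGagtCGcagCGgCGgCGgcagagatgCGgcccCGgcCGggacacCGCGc
Sema6b promoter 2: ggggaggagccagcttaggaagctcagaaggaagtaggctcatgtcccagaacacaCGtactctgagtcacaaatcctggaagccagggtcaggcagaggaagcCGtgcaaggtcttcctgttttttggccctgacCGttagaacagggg

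Guidance genes were marked about as often as protein-coding genes in general. A peak lay at a TSS of 33 of 70 genes, which is 47.1% (95% Wilson interval 35.9 to 58.7%), against 49.4% of all protein-coding genes. Without Unc50 and Unc5cl the count was 32 of 68, or 47.1% (35.7 to 58.8%). Among genes with a CpG island within 250 bp of a TSS, however, they were marked less often than the background share. Islands were found at 63 of the 70 genes, and 33 of these 63 were marked, which is 52.4% (40.3 to 64.2%), against 70.2% of all protein-coding genes with an island. A mark in fewer of the cells and less mark per cell cannot be told apart in such bulk data. The interval lies below the background share and covers counting error over genes only, since genes are not replicates. The remaining 7 genes, Sema3b, Sema3g, Ntn5, Unc5cl, Plxnb3, Epha10 and Robo4, had no island and none was marked, against 5.02% of all genes without an island. The result thus left 30 genes with an island and no peak.

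Ligand and receptor genes were marked at shares that could not be told apart. Peaks lay at 17 of 35 ligand genes, 48.6% (33.0 to 64.4%), and at 15 of 33 receptor genes, 45.5% (29.8 to 62.0%). The ligand share was higher by 3.12 percentage points, with a 95% Newcombe interval from -19.6 to 25.4 points, so a difference of that size in either direction is within the counting error. Among genes with an island the shares were 53.1% of ligands and 50.0% of receptors. The sign of this difference turned to -2.42 points when only the 5′ end of each gene record was scored, since Sema3a, Sema6b and Sema6d were then unmarked among ligands and Plxna2 among receptors.

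Shares spread more widely over the families than over the roles. Among genes with an island, 8 of 10 plexins and neuropilins (80.0%) and 6 of 8 ephrins (75%) were marked, both near the 70.2% of all genes with an island. Of slits and netrins with an island 1 of 6 (16.7%, interval 3.01 to 56.4%) was marked, and of Robos and Unc5 receptors 1 of 7 (14.3%, interval 2.57 to 51.3%), against the same 70.2%. Within the Eph receptors with an island, 4 of 5 EphB genes were marked, 80.0% (37.6 to 96.4%), and 2 of 8 EphA genes, 25.0% (7.15 to 59.1%). Over all EphA genes it was 2 of 9, 22.2% (6.32 to 54.7%), against 49.4% of all protein-coding genes. These family shares rest on few genes, their intervals overlap, and no test was run between them.

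**Figure D1:**
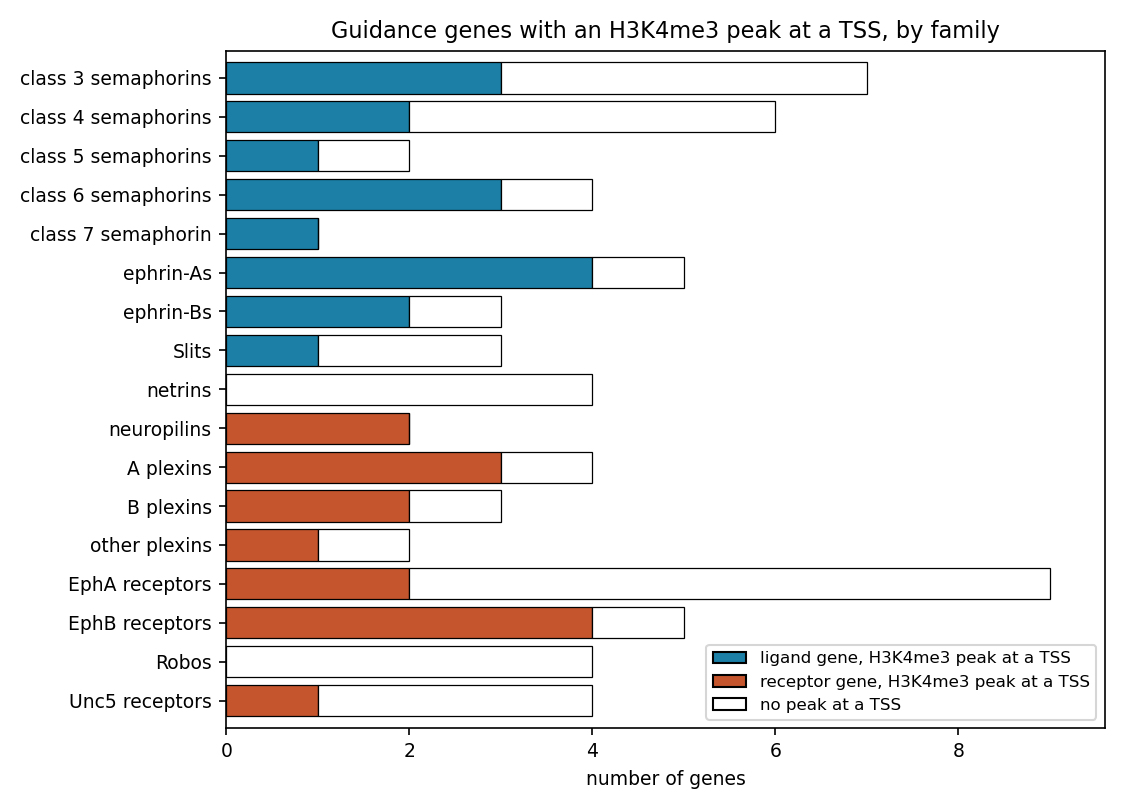
Number of guidance genes per family, with ligand families in the upper rows and receptor families in the lower rows. The filled part of a bar counts genes with an H3K4me3 peak within 250 bp of a TSS and the white part counts genes without one. Filled bars make up 6 of 8 ephrins and 8 of 11 plexins and neuropilins, while netrins and Robos have no filled part.

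Peaks of marked guidance genes were mostly wider than the median of all marked protein-coding genes, though not at the semaphorins. The widest TSS peak of the 33 marked genes had a median width of 4557 bp (quartiles 3203 and 5350 bp, range 1015 to 18370 bp), against 3254 bp over all 10747 marked protein-coding genes (quartiles 2410.5 and 4258 bp). Of the 33, 24 exceeded the median of all marked genes, 17 (51.5%) exceeded their upper quartile and 7 (21.2%) stood above their 90th percentile. At the other end, 5 lay below the lower quartile. The medians lay apart in the same direction among peaks that reached the TSS of no other gene, with a median of 4636 bp at 25 guidance genes against 2955 bp at 7088 protein-coding genes. The 10 marked semaphorins did not share this greater width. Their median was 3181 bp, with 4 above the median of all marked genes and 4 below the lower quartile.

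Marked ligand genes had a median width of 4149 bp (range 1191 to 6328 bp) and marked receptor genes one of 4636 bp (range 1015 to 18370 bp). The 5 widest peaks all belonged to receptors: Nrp2, Unc5b, Ephb3, Plxnd1 and Epha2. Of these, Epha2 (6332 bp) was barely wider than the widest ligand, Efna1 (6328 bp). Of the 7 guidance genes above the 90th percentile, 5 were receptors and 2 were ligands, Efna1 and Sema3f. Below the lower quartile were 4 ligands (Sema3c, Sema5a, Sema6b and Sema3a) and 1 receptor (Epha4). The ranges of the 2 roles overlapped between 1191 and 6328 bp, where all 17 ligands and 9 of the 15 receptors lay. Of the other receptors 5 were above this span, Epha2 only just, and 1 was below it.

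**Figure D2:**
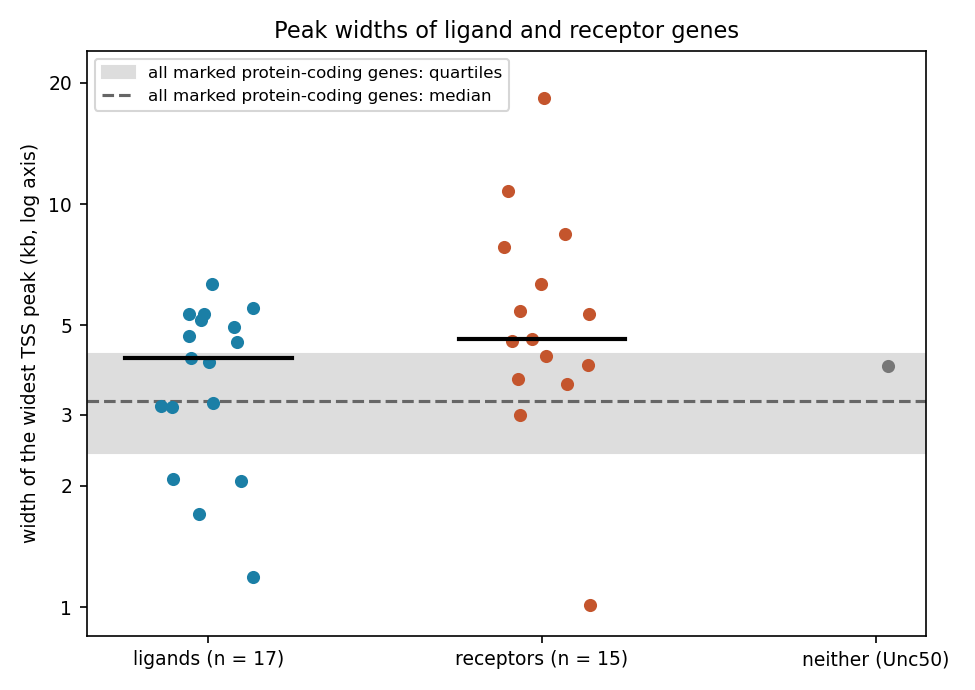
Width of the widest TSS peak (kb, log axis) of each marked ligand gene, each marked receptor gene and Unc50, 1 point per gene, with the median of each role as a black line. The dashed line and grey band give the median (3254 bp) and quartiles of all 10747 marked protein-coding genes. The 17 ligands lie between 1191 and 6328 bp, and the 5 widest points are receptors, from Epha2 at 6332 bp to Nrp2 at 18370 bp.

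Both neuropilins, the co-receptors that bind class 3 semaphorins and VEGF, were marked. Nrp2 had the widest peak of all guidance genes at 18370 bp (chr1:62701972-62720341), and only 2 of 10747 marked protein-coding genes had a wider one. It reached 1313 bp upstream and 17056 bp downstream of the TSS and also covered a TSS of the lncRNA Gm29083. CpG islands made up 20.0% of it. The peak of Nrp1 was 5350 bp wide (chr8:128356431-128361780) and extended 2853 bp upstream and 2496 bp downstream of the 5′-most TSS under it. Measured from the 5′ end of the gene record, the direction turned, with 2173 bp upstream and 3176 bp downstream.

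Plexins are the signalling receptors of the semaphorins, and 6 of 9 were marked. Plxnd1, known for its part in vessel patterning and a direct receptor of Sema3e, had a peak of 7804 bp (chr6:115988735-115996538), of which 6270 bp lay downstream of the TSS. The A plexins, partners of the neuropilins, had peaks of similar width, 4636 bp at Plxna1, 4579 bp at Plxna2 and 3674 bp at Plxna3. Plxna4 was the exception, with the nearest peak 470.7 kb away and an island of 1707 bp at its TSS holding 63 CpGs within 250 bp. Of the B plexins, receptors of class 4 semaphorins, Plxnb2 had 5426 bp and Plxnb1 3572 bp. Plxnb3 had no island and no peak. Plxnc1, the receptor of Sema7a, had 70 CpGs within 250 bp of its TSS and its nearest peak 253.9 kb away.

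Among the Eph receptors, 6 of 14 were marked. Ephb3 had 8445 bp (chr16:21204446-21212890), of which 8135 bp lay downstream of the TSS, so that the peak also covered its promoter 2 at 6.34 kb. Ephb4, best known as the receptor of ephrin-B2 on veins, had 4200 bp, Ephb2 3977 bp and Ephb6, which lacks kinase activity, 3000 bp. Ephb1 had an island of 1836 bp, no peak, and its nearest one 269.8 kb away.

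Epha2, an Eph receptor found in many epithelia and tumours, had 6332 bp (chr4:141300953-141307284), with 6044 bp downstream of the TSS. Epha4, which binds ephrins of both classes, had the narrowest peak of all at 1015 bp (chr1:77514146-77515160). Only 2.51% of marked protein-coding genes had a narrower one. All of it was CpG island sequence, and it also covered a TSS of the lncRNA Gm28386. The other 7 EphA genes were unmarked, and 6 of these had an island: Epha1, Epha3, Epha5, Epha6, Epha7 and Epha8. Epha3, Epha5, Epha6 and Epha7 lay far from any peak, with the nearest at 905.3, 1645.9, 965.4 and 2465.9 kb.

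The 4 Robos, a family that includes the receptors of the slits, had no peak at a TSS. Robo1 and Robo2, which lie 845.7 kb apart on chromosome 16 and bind slits at the midline, were 2347.7 and 1354.6 kb from the nearest peak. Robo3 and the endothelial gene Robo4, whose gene bodies are 0.554 kb apart on chromosome 9, were also both unmarked, at 54.5 and 52.4 kb. Of the slit genes, Slit2 was marked, with 4047 bp (chr5:47982807-47986853), while Slit1 and Slit3 were not, although each had an island.

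Netrin genes had no peak at a TSS in any of 4 cases. Ntn1, the secreted netrin that binds Dcc, has 2 promoters with islands of 1743 and 2659 bp and was 31.2 kb from the nearest peak. Ntn4, a netrin of basement membranes, had an island with 59 CpGs within 250 bp and its nearest peak 50.7 kb away. Ntn3 was 3.21 kb from a peak of 2359 bp that lies at a TSS of its neighbour Tbc1d24.

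Unc5 receptors bind netrins and mediate repulsion. Unc5b alone of the 4 was marked, with 10762 bp (chr10:60821899-60832660), the second widest peak among the guidance genes, and 94 of all marked protein-coding genes had a wider one. It carried 66 CpGs within 250 bp of the TSS. Unmarked Unc5a, Unc5c and Unc5d had 64, 59 and 68, so the CpG counts of the marked gene and its relatives were close. The nearest peak was 149.2, 927.6 and 1891.5 kb from these 3 genes.

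Ephrins, the membrane-bound ligands of the Eph receptors, were marked at 6 of 8 genes. Efna1, an anchored ligand of Epha2, had 6328 bp (chr3:89275826-89282153), the widest peak of any ligand gene. Efna3 (4149 bp) and Efna4 (4557 bp) follow it on chromosome 3, with 32.8 kb between Efna1 and Efna3 and 10.4 kb between Efna3 and Efna4. All 3 neighbours carried separate peaks. Efna5 had 5329 bp with 93.4% of it in islands, and reached 3190 bp upstream and 2138 bp downstream of its TSS. Of the transmembrane ephrins, Efnb1 had 5341 bp and Efnb2, the ligand of Ephb4, 3140 bp. Efna2 and Efnb3 were unmarked with islands, and Efna2 had 75 CpGs within 250 bp of its TSS.

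Semaphorins were marked at 10 of 20 genes, with a median width of 3181 bp, against 3254 bp over all marked protein-coding genes. Of the 7 secreted class 3 genes, Sema3f had a wide peak of 5519 bp (chr9:107705028-107710546), and Sema3c had 2074 bp and Sema3a 1191 bp. Sema3b, 72.3 kb from Sema3f, was unmarked, as were Sema3d and Sema3e on either side of Sema3a on chromosome 5, and Sema3g. Among the 6 class 4 genes, which act mainly on B plexins, Sema4c had 5150 bp and Sema4b 4696 bp, and the other 4 had an island but no peak. Sema7a, held to the membrane by a lipid anchor, had 4943 bp. The peaks of class 6, ligands of A plexins, were narrower: 3203 bp at Sema6c, 3159 bp at Sema6d and 1704 bp at Sema6b, with none at Sema6a. Of the class 5 genes Sema5a had 2055 bp, 98.0% of it in islands and shared with the TSS of the lncRNA Snhg18, and Sema5b had an island of 2121 bp and no peak.

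Known partners set side by side included pairs with a mark on 1 side and pairs with a mark on both. Slit2 was marked, and its receptor genes Robo1 and Robo2 were not. Sema7a was marked with 4943 bp and its receptor gene Plxnc1 was not. Sema3e was unmarked and its receptor gene Plxnd1 was marked with 7804 bp. Sema4d was unmarked and its receptor gene Plxnb1 was marked with 3572 bp. Both sides were marked for Sema4c (5150 bp) and Plxnb2 (5426 bp), for Efna1 (6328 bp) and Epha2 (6332 bp), for Efnb2 (3140 bp) and Ephb4 (4200 bp), and for Sema3f (5519 bp) and Nrp2 (18370 bp). These pairs were named from known binding and were not counted or tested as a set. With 48.6% of ligand genes and 45.5% of receptor genes marked, pairs with a mark on 1 side would be frequent in any pairing.

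Peaks extended mainly into the genes. Over the 25 marked genes whose peak reached no other gene, the median reach was 1033 bp upstream and 3566 bp downstream of the TSS, and 22 (88.0%) reached further downstream. Over 7088 protein-coding genes chosen in the same way, the medians were 735 and 2151.5 bp and 94.0% reached further downstream. Both medians of the guidance genes were the longer ones. The 3 genes with more of the peak upstream of the TSS used were Efna5, Nrp1 and Sema6b, of which Nrp1 turned with the 5′ end of its gene record. Islands covered a median of 34.7% of a peak (range 19.8 to 100%), and over 90% at Efna5, Efnb2, Epha4 and Sema5a. Across the 33 genes, width and the island length within the peak had a Spearman correlation of 0.44, and width and CpGs near the TSS one of 0.28. The first is not independent of how far a peak extends over its island, and both describe these genes only.

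**Figure D3:**
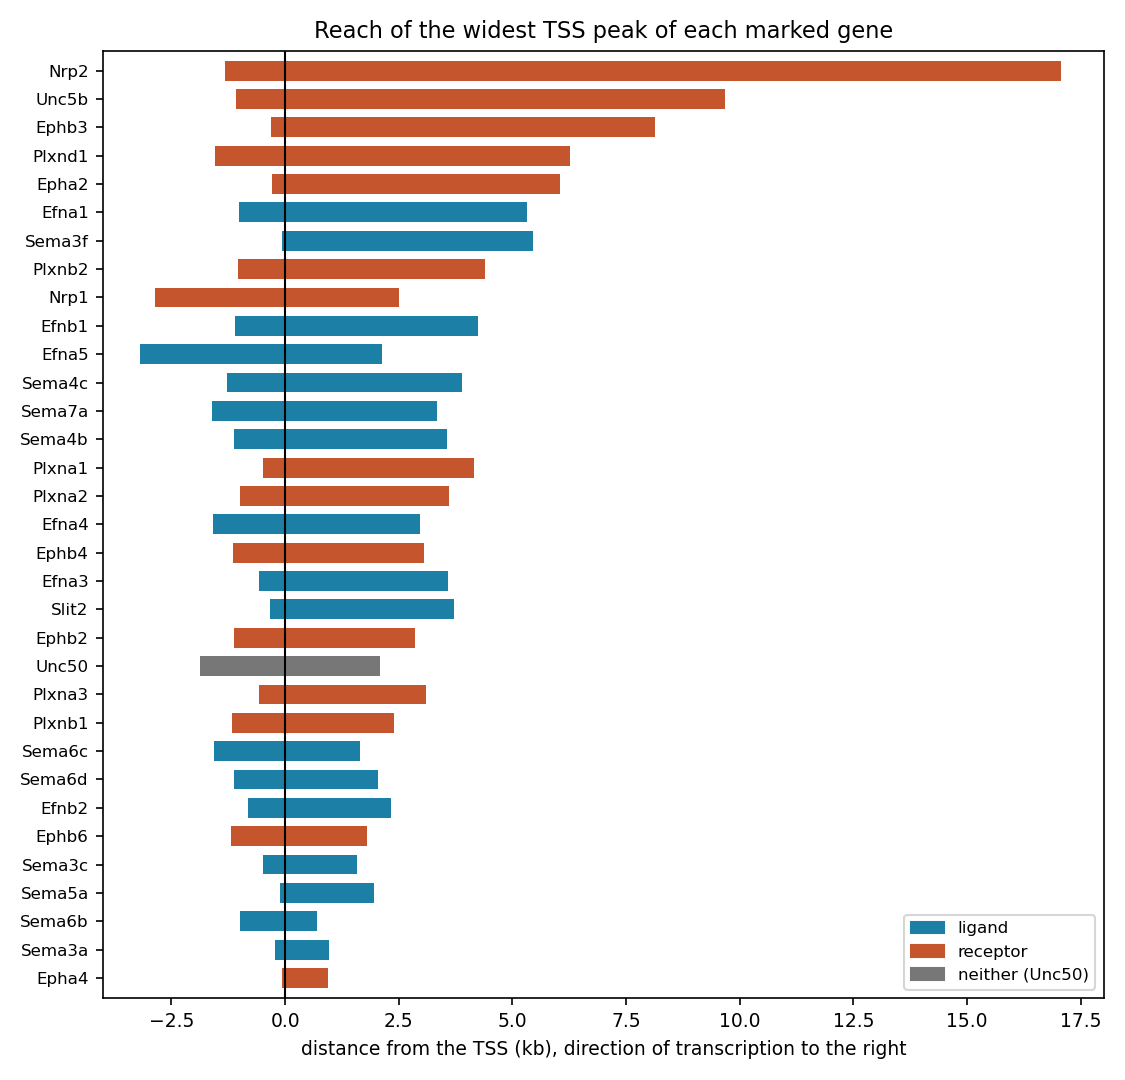
Reach of the widest TSS peak of each of the 33 marked genes around its TSS (kb, with the direction of transcription to the right), ordered by width with the widest at the top and coloured by role. Most bars extend further to the right of the TSS, up to 17056 bp at Nrp2, and those of Efna5, Nrp1 and Sema6b extend further to the left, which for Nrp1 turns when the 5′ end of its gene record is used.

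Of the 70 genes, 18 have several promoters, counted as groups of TSSs within 500 bp of each other, and 11 of these were marked. Peaks lay at all promoters of 5 genes (Sema3f, Sema4b, Sema4c, Efna1 and Ephb3), at some of 6 and at none of 7. The same counts were not made over all protein-coding genes, so whether these are usual is not known. Sema4b had a separate peak at each of its promoters, 3564 bp at promoter 1 and 4696 bp at promoter 2, which lie 11.6 kb apart. In the other 4 genes marked throughout, a single peak spanned both promoters.

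In 3 of the 6 genes with a choice of promoter, Sema6c, Plxna1 and Plxnb2, the peak lay at promoter 1, which had an island, and promoter 2 had neither an island nor a peak. In the other 3 the peak lay at promoter 2. Sema3a was marked 2.525 kb downstream of its promoter 1, at an island of 535 bp with 17 CpGs within 250 bp of the TSS, and promoter 1 had 3 CpGs and no island. Sema6d was marked at promoter 2 of 3, with 43 CpGs, which lies 520.3 kb downstream of promoter 1, and promoter 1 has an island of 997 bp with 29 CpGs and no peak. Sema6b was marked 6.5 kb downstream of its promoter 1, at a promoter with 9 CpGs and no island within 250 bp. The peak itself was not free of islands, which made up 458 bp (26.9%) of it further from this TSS. Promoter 1 of Sema6b had 53 CpGs in an island of 1045 bp and its nearest peak 5505 bp away. The 2 printed runs of the gene show this contrast close to the TSSs. When a peak within 1000 bp of a TSS was allowed, Plxna1 and Plxnb2, whose promoter 2 lies 744 and 708 bp from a peak, counted as marked throughout and the number of genes with a choice fell to 4.

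**Figure D4:**
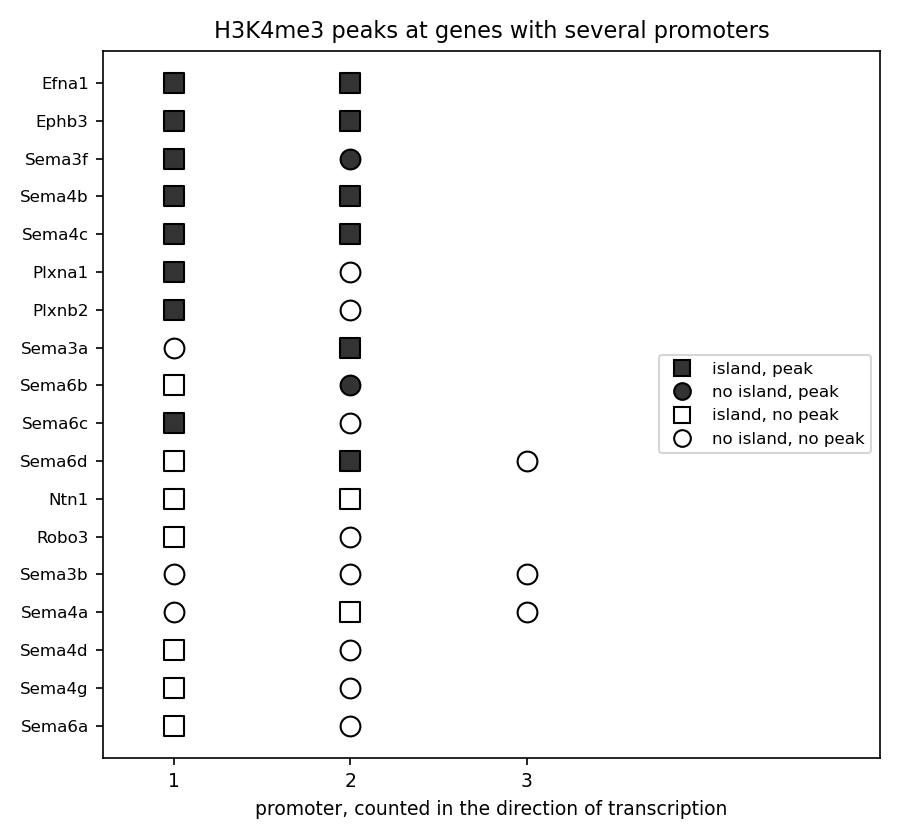
Promoters of the 18 guidance genes that have several, 1 symbol per promoter, numbered in the direction of transcription. Filled symbols have an H3K4me3 peak within 250 bp of a TSS and squares have a CpG island within the same distance. Sema6b is the gene whose filled symbol has no island within this distance while its open one has an island.

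Among promoters with an island, CpG content did not sort marked from unmarked ones, with a median of 41 CpGs at the 36 marked (quartiles 34 and 55) and 41 at the 33 unmarked (quartiles 31 and 59). Promoters without an island have few CpGs by definition. Over all 91 promoters of the 70 genes, 38 were marked, 36 of them with an island, and the 2 others were promoter 2 of Sema3f and of Sema6b. Marked promoters had a median of 41 CpGs within 250 bp of the TSS (range 7 to 76), against 30 at unmarked promoters (range 3 to 89). Taking each gene at its promoter with most CpGs, the 33 marked genes had a median of 43 CpGs and the 30 unmarked genes with an island one of 42. At least 50 CpGs were found at 13 of the 33 and at 12 of the 30. The highest count of any guidance promoter was that of unmarked Epha8, with 89 CpGs and 83.8% GC, 90.7 kb from the nearest peak and 93.4 kb from its marked neighbour Ephb2. Epha2, whose printed run holds 7 CpGs, had 35 within 250 bp.

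**Figure D5:**
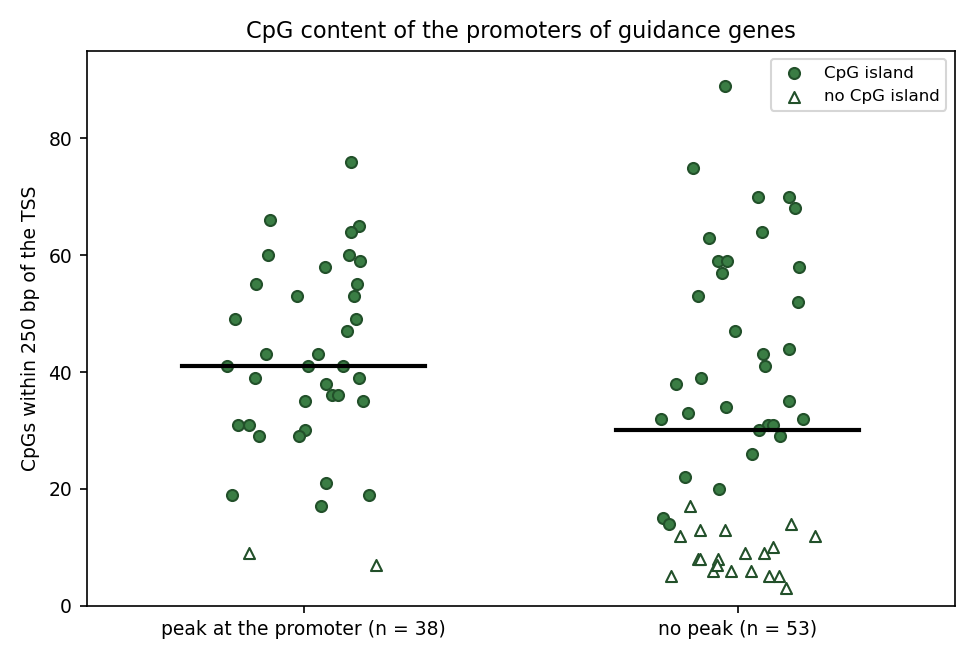
CpGs within 250 bp of the TSS at each of the 91 promoters of the guidance genes, with marked promoters on the left and unmarked ones on the right, circles for promoters with a CpG island, open triangles for those without, and black lines for medians (41 and 30). The circles of both classes span nearly the same range, and the highest, at 89 CpGs, is the unmarked Epha8.

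Short promoter motifs were counted on both strands from 250 bases before to 50 bases after the 5′-most TSS of each gene, at promoter 1. The GC box GGGCGG, a binding motif of Sp1, was present at 24 of 30 marked and 25 of 40 unmarked promoters, 80.0% and 62.5%, against 43.4% of all protein-coding genes. These groups differ in islands, and the motif itself holds a CpG. All 30 marked promoters had an island, against 61 of all 70, and 14808 of 21755 protein-coding genes had one at a TSS. Shares among promoters with an island were not computed. On one strand or the other, the printed runs of marked Nrp2, Unc5b and Epha2 hold the GC box. So do those of unmarked Unc5c, Epha8 and Sema6b promoter 1. CCAAT was present at 33.3% of marked and 20.0% of unmarked promoters, against 38.9% of all genes, and TATAAA at 2 of 30 marked and 0 of 40 unmarked promoters, against 12.7% of all. A match describes the letters in this window only.

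Most unmarked guidance genes had no peak within 5 kb of a TSS. Distances were not computed for unmarked protein-coding genes in general, so these values have no background. The distance from a TSS to the nearest peak had a median of 54.5 kb over the 37 unmarked genes (range 2.795 to 2465.9 kb), and 3 of them, Sema3b, Sema4a and Ntn3, had a peak within 5 kb. No gene was between 250 and 1000 bp, so the count of 33 was the same with a limit of 0 or 1000 bp. Gene length had a median of 108 kb at unmarked genes (quartiles 15.4 and 321 kb) and one of 28.98 kb at marked genes (quartiles 15.6 and 148 kb), so the lower quartiles were alike. Length was not compared with that of all genes.

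Some peaks lay inside guidance genes but more than 250 bp from any of their TSSs. There were 13 of these, 1 at the TSS of Tbc1d24 within Ntn3 and 12 in 10 guidance genes. The 12 had no annotated TSS of a protein-coding or lncRNA gene within 250 bp, but the one in Plxnb2 was 708 bp from its promoter 2. The same count over all protein-coding genes was not made. The 12 were 425 to 5245 bp wide (median 1552.5 bp), 11 lay within introns and 2 held an island. Unc5b had 2, of 5245 and 2275 bp, starting 13.2 and 21.9 kb downstream of its TSS, and Sema3f also had 2, of 1645 and 2848 bp. The single one that touched an exon was in Ephb2 (1675 bp, 185.3 kb from the TSS). Slit3, unmarked at its promoter, held one of 425 bp 466.2 kb into the gene.

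Of 50 genes that act downstream of the guidance receptors, taken from lists of known effectors, 38 (76.0%, interval 62.6 to 85.7%) were marked. This interval covers the 70.2% of protein-coding genes with an island, and the share of all protein-coding genes was 49.4%. By list the intervals were 62.3 to 98.4% (SLIT, ROBO), 50.8 to 85.1% (semaphorin, plexin) and 48.0 to 89.1% (ephrin, Eph). Each covers 70.2% too. An island was found at 49 of the 50. The difference from the receptor genes, 45.5% of which were marked (50.0% of those with an island), was not tested. For SLIT and ROBO signalling it was 10 of 11, with Srgap2 (7039 bp) and Srgap3 (5360 bp), which encode Rac and Cdc42 inactivators that bind Robos, the kinase gene Abl1 (5241 bp) and the Ras exchange factor gene Sos1 (4205 bp). Srgap1 was the exception. For semaphorins and plexins it was 17 of 24, led by the kinase genes Cdk5 (7266 bp) and Gsk3b (7069 bp), Rras (6702 bp), whose GTPase is inactivated by plexins, and Arhgef12 (5612 bp), an exchange factor bound by B plexins. The 7 unmarked ones were Crmp1, Dpysl3, Dpysl4 and Dpysl5, which encode collapsin response mediators, Fes, L1cam and Mical3, while Dpysl2 of the same mediator family was marked (4585 bp). For ephrins and Eph receptors it was 11 of 15, with the exchange factor genes Itsn1 (5225 bp), Vav2 (5083 bp) and Vav3 (3868 bp) and the Rap regulator gene Sipa1l1 (4382 bp). Ngef, which encodes ephexin, Chn1, Chn2 and Grb10 were unmarked.

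Other genes of netrin and repulsive guidance molecule (RGM) signalling were marked at 4 of 10 (40.0%, interval 16.8 to 68.7%), all 10 with an island, against 70.2% of all genes with an island. Neo1 (5249 bp) encodes neogenin, which binds netrins and RGMs, and Rgma (3811 bp) and Rgmb (5098 bp) encode 2 RGMs. Lrrc4c (3883 bp) encodes a partner of netrin-G1. The unmarked ones were Dcc, the attractive netrin receptor gene, Dscam, Draxin, Lrrc4, Ntng1 and Ntng2. For netrins, the marked receptor genes were therefore Unc5b and Neo1, while none of the 4 netrin genes and neither Dcc nor Dscam had a peak at a TSS.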

How the data were processed

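H3K4me3 ChIP-seq of C127 cells had 3 replicates and 1 input. According to the study's methods, the authors aligned reads to mm10 with bowtie2, discarded reads with several positions, removed PCR duplicates with SAMtools, called peaks with MACS in each replicate, kept those found in all, and joined neighbouring peaks up to 250 bp apart, so a printed width can span several called peaks. The smallest gap left was 251 bp. Bowtie2, SAMtools, MACS2 and mm10 are named, with no version, in the submitters' processing notes. The deposited list gives a chromosome, start and end per peak and no score, so depth is unknown and peaks cannot be ranked by strength. Because reads with several positions were discarded, repeated promoter sequence can go unmarked, which was not tested for these genes.

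Of 13451 peaks, 13447 on the 19 autosomes and X were used, with starts made 1-based. TSSs came from GENCODE vM21 basic. A CpG island was any stretch of 200 bp or more whose GC fraction reached 0.5 and whose CpG content, observed over expected, reached 0.6. Intervals are 95% Wilson or Newcombe intervals. Shares were described without tests, because the list has no replicate values. Peak lookup and island search were tested on simulated data (Python 3.11.15, pandas 2.3.3, numpy 2.4.6).

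Every guidance gene could be named. Full values went to the widest of each family, the 10 widest, the 3 narrowest, genes with a choice of promoter and islands without a peak, and from other lists to the 4 widest and the smaller side where it held 8 or fewer. Hjv was listed but not matched in the annotation. The genes and lists were chosen with earlier results of these data known. Alternatives were the distance from a TSS (0 or 1000 bp), other sets of TSSs, peaks of at least 1000 bp, peaks at no other gene, stricter islands (500 bp, 0.55 and 0.65), promoters joined within 1000 bp, and leaving out Unc5cl. Leaving out Unc5cl and Unc50, and measuring reach from the 5′ end of the gene record, were chosen after seeing the data.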

Additional observations from a re-analysis of the deposited data

How the results depend on the processing

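Of 47 alternative values computed, 45 stayed within the limits set. The limits were wide: a fall from 17 to 14 marked ligand genes counted as within them. So did one from 6 to 4 genes with a choice of promoter. Several of the 45 could not have changed. Leaving out Unc5cl and Unc50 cannot alter the ligand or receptor counts. The narrowest peak of a marked gene was 1015 bp, so a limit of 1000 bp could remove no gene. The count of 33 marked genes ranged from 29 to 33, and the median width from 4557 to 4568 bp. The difference between ligand and receptor shares changed sign with the 5′ end of the gene record alone (-2.42 points against 3.12 points), because Sema3a, Sema6b, Sema6d and Plxna2 were then unmarked by construction. The upstream minus downstream reach of the Nrp1 peak was -1003 bp from the 5′ end of the gene record, against 357 bp from the TSS used. With stricter islands 59 genes had an island and 31 of these were marked. The share of all protein-coding genes was not computed under this rule. The comparison of 52.4% with 70.2% therefore rests on the main rule, which is loose: it gave 177633 islands, against 21348 by the stricter one. No paired analysis was possible because the replicates were merged into 1 list, and for the same reason no replicate could be left out. With no heights and no depth, weakly marked promoters and unmarked ones cannot be told apart.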
